A study of Mus musculus with 3 samples.

Results

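Heat shock proteins and chaperones were followed as the 83 genes of 32531 whose symbols begin with Hsp followed by a class letter or digit, Dnaja, Dnajb or Dnajc followed by a number, or Cct2 to Cct8. They were described in separate groups: 17 genes of the HSP70, HSP110 and HSP90 families, 45 J-domain genes, 11 chaperonin genes, 8 small heat shock genes and 2 genes, Hspbp1 and Hspbap1, that carry the Hsp prefix without belonging to those families. Hspbp1 encodes a nucleotide exchange factor of HSP70. The data were RNA-seq counts from translating ribosome affinity purification (TRAP), in which ribosomes that carry a green-fluorescent L10a subunit are pulled down by antibody together with the RNA they hold. All 3 libraries were immunoprecipitates of cerebral cortex from adult Kcnip2-EGFP/Rpl10a (NIDA115) mice on the C57BL/6J strain, without treatment, and formed 1 group. The tag is driven by regulatory sequences of Kcnip2, which encodes a potassium channel-interacting protein. Tagged ribosomes therefore came from the cells in which that transgene was active. No input or untagged library was used here, so levels within the immunoprecipitate are given, and enrichment over whole cortex is not. Without such libraries, RNA carried over from other cells or from nuclei cannot be told apart from RNA on tagged ribosomes.

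Chaperones bind unfolded or partly folded proteins and keep them from aggregating. HSP70 proteins bind and release short hydrophobic stretches in cycles of ATP hydrolysis that J-domain proteins start and nucleotide exchange factors end; HSP90 acts later, on a narrower set of clients, and the barrel-shaped chaperonins enclose a client in a cavity, as the cytosolic CCT ring does with actin and tubulin. In neurons the constitutive HSP70 is also known for stripping clathrin coats from recycled synaptic vesicles, with the J-domain protein auxilin. Heat, oxidation and other stress raise a subset of these genes through heat shock factors, while misfolded protein in the endoplasmic reticulum raises another subset.

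Replicates 1, 2 and 3 had depths of 11602248, 13635132 and 14174384 counts in genes, and values are given in that order throughout. Levels are in CPM, a gene's counts as a proportion of the scaled library size. Between genes they are compared as CPM per kilobase of exon. Nothing in the labels ties each library to its own animal, so any p-value reflects spread among the libraries alone, and that spread may be technical. The pan-neuronal markers summed to 40328.5, 43242 and 46594 CPM with 11 of 11 detected, against 2603, 4170 and 3508 CPM for 12 of 12 astrocyte markers. Most of the neuronal sum was Snap25, at 31380, 33129.5 and 36012 CPM. Slc1a2 and Glul, with means of 1332 and 1324 CPM, led the astrocyte sum. Marker sums are not divided by length. Oligodendrocyte markers, 9 of 10 detected, summed to 594 to 782 CPM, microglial markers, 6 of 10, to 49.4 to 78.2 CPM, and endothelial and mural markers, 7 of 12, to 25.5 to 39.8 CPM. In such bulk libraries fewer cells of a type and less RNA per cell cannot be told apart.

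Chaperone genes took 1.20%, 1.41% and 1.38% of the gene counts. Detected, meaning at 1 CPM or more in every library, were 69 of the 83 members (83.1%), against 37.3% of all rows. At 100 CPM or more in every library were 26 members (31.3%), against 5.75% of all rows. The members without a single read were Cct6b, Dnajb7, Dnajb8, Dnajc22, Dnajc5b and Dnajc5g, for which a count of 0 allows up to 0.256, 0.222 and 0.213 CPM, covering counting error only. The median level over all 83 members was 3.12 ± 0.15 on the log2 CPM per kilobase scale (SD, n = 3), against -0.16 ± 0.01 over all rows with a known exon length. Among detected genes alone the medians were 3.72 for members and 2.26 for all genes.

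The groups differed in level. Median log2 CPM per kilobase was 5.07 ± 0.12 for the HSP70, HSP110 and HSP90 genes, of which 17 of 17 were detected, and 4.87 ± 0.03 for the chaperonin genes, with 9 of 11 detected (SD, n = 3). For the J-domain genes it was 2.82 ± 0.06, with 38 of 45 detected, and for the small heat shock genes 0.11 ± 0.18, with 3 of 8 detected. Summed over its genes, the HSP70, HSP110 and HSP90 group reached 7606, 9554 and 9279 CPM, the J-domain group 3052, 3342 and 3275 CPM and the chaperonin group 1122, 1280 and 1239 CPM, while the small heat shock group stayed at 32.5, 31.2 and 29.3 CPM.

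**Figure D1:**
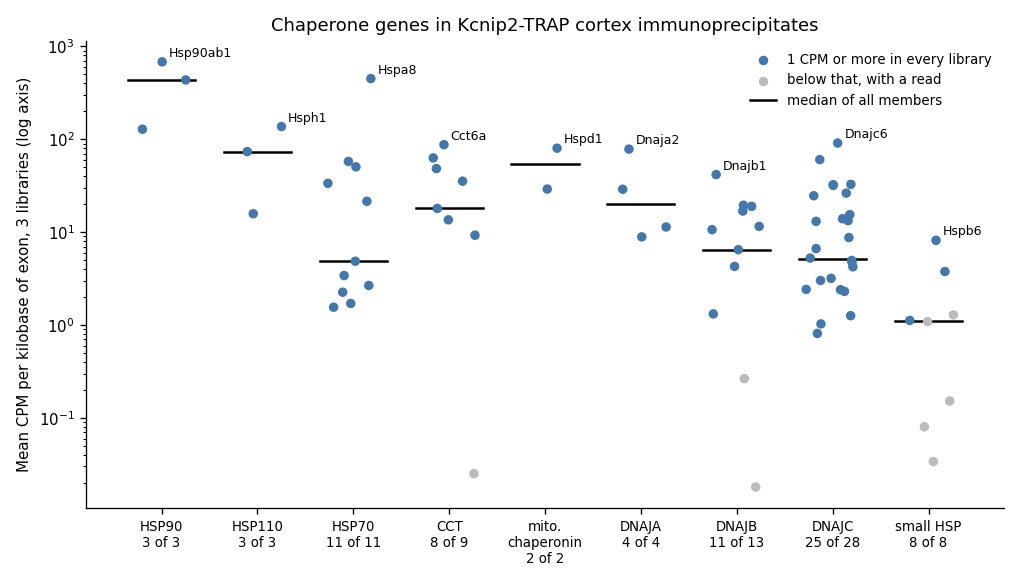
Mean CPM per kilobase of exon of each member on a log axis, by family, over 3 libraries. Blue points are members at 1 CPM or more in every library, grey points are members below that with at least 1 read, bars are medians of all members, members without a read included, and the numbers under each name give the members with a read. Hsp90ab1 is highest at 681 CPM per kilobase and the small heat shock genes lie lowest.

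The HSP90 genes were the most abundant family. Hsp90ab1, the constitutive cytosolic HSP90, had 1806, 2303 and 2022 CPM and ranked 21 of 11766 detected genes in CPM per kilobase. Hsp90aa1, the stress-inducible cytosolic form, had 1377, 1766 and 1989 CPM and ranked 40. Hsp90b1, which encodes the HSP90 of the endoplasmic reticulum (GRP94), had 388, 583 and 583 CPM and ranked 171. Replicate 1 was lowest for each of them. Per kilobase the means were 681 ± 83.1, 435 ± 78.7 and 128 ± 27.8 CPM (SD, n = 3), and no library of one gene overlapped with a library of the next. Hsp90ab1 supplied 54.9% of the family's summed CPM per kilobase, Hsp90aa1 34.9% and Hsp90b1 10.2%.

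The order of the cytosolic pair depended on how shared sequence was treated. Hsp90ab1 exceeded Hsp90aa1 by 0.66 ± 0.21 on the log2 CPM per kilobase scale, or 1.58-fold, and was higher in 3 of 3 libraries. Of the 50-base stretches of a gene's longest transcript, the measure of shared sequence used throughout, 58.5% of those of Hsp90aa1 also occur in another gene. Gm12346, a processed pseudogene, holds 51.5% of all its stretches. An alternative length, chosen after the data were seen, counted only the unshared 50-base stretches of a gene's longest transcript. It is called exon bases outside shared stretches, and it replaces the union of exons by the longest transcript as well. With it the difference of Hsp90ab1 from Hsp90aa1 was -0.55, against 0.65 with the whole longest transcript. Reads not uniquely aligned were tallied apart from genes, at 19.4%, 15.8% and 13.8%. Reads that fit both Hsp90aa1 and a copy may therefore be missing from its count, which would make the 1.58-fold too large. How many were lost is not known and the counting mode is not stated, so the order of this pair is uncertain.

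The HSP110 genes, whose products are relatives of HSP70 that act as its nucleotide exchange factors, kept a fixed order. Hsph1 had 868, 1125 and 995 CPM, Hspa4 had 337, 431 and 454 CPM and Hspa4l had 174, 189 and 195 CPM. Hsph1 exceeded Hspa4 by 0.90 ± 0.14 on the log2 CPM per kilobase scale, and Hspa4l lay 2.21 below Hspa4 (log2 ratio -2.21 ± 0.15, SD, n = 3; -1.12 without division by length). Their ranges did not overlap. Hsph1 made up 60.5% ± 2.13 of the family's CPM per kilobase.

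The heat shock element, the binding motif of heat shock factors, is built of alternating GAA and TTC units. It was searched in RefSeq promoter windows of GRCm38.p6, each spanning 250 bases before to 50 bases after a gene's start. Windows existed for 68 of the 83 members. Hsp90ab1, Hspa8 and Hsp90aa1 had none, so their promoters were not searched for any motif here. The 2-unit form GAANNTTC is its own reverse complement, and so is TTCNNGAA, so each search covers both strands. GAANNTTC occurred in 16 members and in 20.7% of member windows, against 7.86% of all 32851 windows. TTCNNGAA occurred in 8 members and in 11.5% of member windows, against 8.52% of all. The 3-unit form, GAA, TTC and GAA with any 2 bases between neighbouring units, was searched on both strands and contains both shorter forms. It occurred in Dnajb6, Hspd1, Hspe1 and Hsph1, and in 0.603% of all windows. A match describes letters in a window and does not show a bound site, and windows without a match say nothing about the factor.

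Of 2 overlapping Hsph1 windows the first is shown, because it holds a 3-unit match and belongs to an abundant member. It lies at chr5:149636287-149636586 on the minus strand (GRCm38.p6) and is written 5′ to 3′ with the 2-unit matches in capitals.
Hsph1: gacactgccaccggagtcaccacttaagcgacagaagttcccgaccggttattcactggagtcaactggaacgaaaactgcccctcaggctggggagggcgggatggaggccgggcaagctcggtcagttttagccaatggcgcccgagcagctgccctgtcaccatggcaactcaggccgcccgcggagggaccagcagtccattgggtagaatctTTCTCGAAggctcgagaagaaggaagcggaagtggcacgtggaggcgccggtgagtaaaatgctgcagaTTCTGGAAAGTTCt
Its matches run from 33 bases before the start to 49 bases after it, and those at the downstream end overlap to form the 3-unit match. In the second window, chr5:149636266-149636565, the same matches run from 54 bases before its start to 28 bases after it.

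Among the HSP70 genes 1 member dominated. Hspa8, which encodes the constitutive cytosolic HSP70, had 1757, 2098 and 1949.8 CPM, ranked 35 of 11766 in CPM per kilobase, and supplied 71.5% ± 1.22 of the family's summed CPM per kilobase (SD, n = 3). Hspa12a, a distant relative of HSP70, had 480.2, 543 and 568 CPM. Hspa5, which encodes BiP of the endoplasmic reticulum, had 171, 242 and 227 CPM, and its range per kilobase overlapped with that of Hspa12a. Hspa9, for the mitochondrial form mortalin, was the flattest of these, at 138, 138 and 159 CPM. Hspa2, best known from testis, had 42.1, 64.6 and 63.8 CPM. Hspa8 exceeded Hspa5 8.98-fold, Hspa9 13.4-fold and Hspa2 21.2-fold in CPM per kilobase, with the same direction in 3 of 3 libraries. Of Hspa8's 50-base stretches 52.6% are shared with 15 other genes. With exon bases outside shared stretches the same ratios were 22.5-fold over Hspa5, 26.1-fold over Hspa9 and 58.1-fold over Hspa2, so the direction held and the size is uncertain.

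The stress-inducible HSP70 genes were low. Hspa1a had 9.12, 11.9 and 9.35 CPM and Hspa1b had 3.24, 5.17 and 4.68 CPM, together 14.5 ± 2.38 CPM (SD, n = 3). Hspa8 exceeded Hspa1a by 7.03 ± 0.12 on the log2 CPM per kilobase scale, or 131-fold. The coding sequences of Hspa1a and Hspa1b are nearly identical: 66.3% of the 50-base stretches of Hspa1a and 62.3% of those of Hspa1b are shared with another gene. The difference between them, 1.12 ± 0.24 on the log2 CPM per kilobase scale in favour of Hspa1a, is therefore uncertain. Reads that fit both may be missing from their counts, so the summed level may be too low. With exon bases outside shared stretches Hspa8 exceeded Hspa1a 126-fold. Hspa1l, a testis-rich relative, lies 546 bases from Hspa1a in the opposite orientation and had 4.60, 5.61 and 6.52 CPM, with 71.4% of its stretches shared. Below 5 CPM per kilobase, neighbouring HSP70 genes overlapped, so Hspa13, Hspa1a, Hspa14, Hspa1l, Hspa12b and Hspa1b have no firm order beyond the gaps between distant ranks. Hspa12b, known from endothelium, had 8.44, 5.54 and 4.89 CPM, highest in replicate 1. Hspa12a exceeded it 33.8-fold in CPM per kilobase.

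The paired inducible genes lie 9951 bases apart on chromosome 17 and have near-copies of 1 promoter, which is why both windows are shown, at chr17:34972107-34972406 and chr17:34959189-34959488, minus strand (GRCm38.p6), with the GAANNTTC match in capitals.
Hspa1a: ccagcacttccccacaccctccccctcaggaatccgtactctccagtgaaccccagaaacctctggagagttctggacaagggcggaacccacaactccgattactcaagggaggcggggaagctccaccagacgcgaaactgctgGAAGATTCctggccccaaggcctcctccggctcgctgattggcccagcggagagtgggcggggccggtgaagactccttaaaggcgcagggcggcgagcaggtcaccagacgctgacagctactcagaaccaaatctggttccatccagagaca
Hspa1b: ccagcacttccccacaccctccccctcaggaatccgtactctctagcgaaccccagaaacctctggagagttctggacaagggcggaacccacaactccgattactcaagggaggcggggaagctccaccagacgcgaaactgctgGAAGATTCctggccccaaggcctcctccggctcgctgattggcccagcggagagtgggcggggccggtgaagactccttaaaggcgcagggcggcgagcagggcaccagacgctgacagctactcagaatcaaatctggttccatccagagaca
The windows are identical at 296 of 300 positions (98.7%). Counting from 1 at the 5′ end and giving the Hspa1a base first, the differences are C44T, T47C, T249G and C276T. In both windows the match lies 104 to 97 bases before the start, outside these 4 positions.

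Hspa5 is shown for the endoplasmic reticulum stress element, searched on both strands. This motif occurred in 3 members, Hspa5, Hsp90b1 and Dnajc3, all of them genes of endoplasmic reticulum chaperones, and in 0.119% of all windows. The window is chr2:34771840-34772139, plus strand (GRCm38.p6), with the match in capitals, 65 to 47 bases before the start.
Hspa5: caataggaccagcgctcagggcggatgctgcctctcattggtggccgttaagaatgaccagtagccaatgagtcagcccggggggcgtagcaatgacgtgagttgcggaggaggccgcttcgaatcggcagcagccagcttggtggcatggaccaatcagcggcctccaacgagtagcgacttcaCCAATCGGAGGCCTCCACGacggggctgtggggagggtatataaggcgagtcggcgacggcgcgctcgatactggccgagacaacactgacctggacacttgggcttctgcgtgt
Mean levels were 50.5 CPM per kilobase for Hspa5, 128 for Hsp90b1 and 13.3 for Dnajc3.

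**Figure D2:**
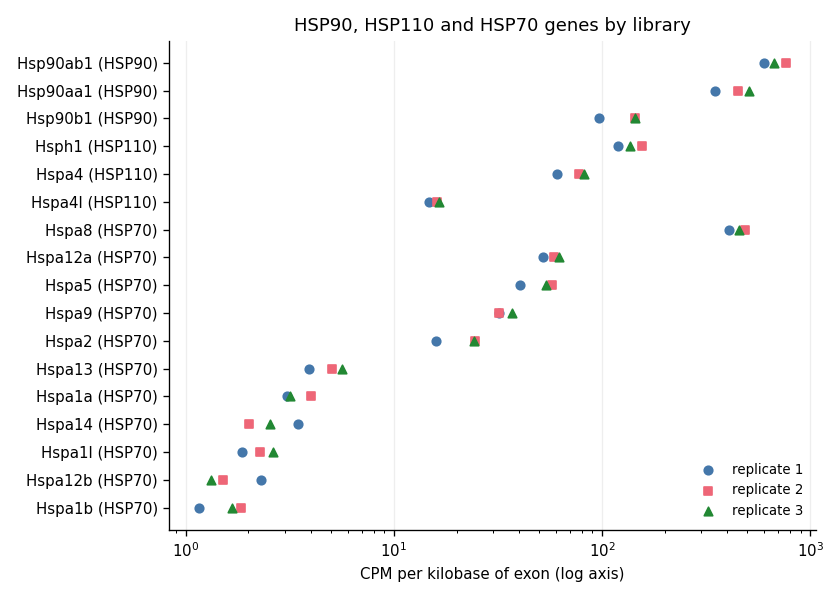
CPM per kilobase of exon of the 17 HSP90, HSP110 and HSP70 genes on a log axis, with 1 point per library. Hsp90ab1, Hsp90aa1 and Hspa8 stand apart at the high end, and replicate 1 is the lowest library for 14 of the 17 genes.

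The chaperonin group holds the cytosolic CCT ring and the mitochondrial chaperonin. A CCT ring takes 1 copy of each of 8 different subunits, of which Tcp1 does not carry a Cct symbol and was read from outside the members. In CPM, Cct6a had 256, 341 and 353, Cct2 had 158, 167 and 158, and Cct5 had 135, 128 and 138. Cct8 had 108, 113 and 107 CPM, Cct7 had 116, 134 and 116 CPM, Cct4 had 58.0, 53.1 and 59.9 CPM, and Cct3 had 55.0, 68.5 and 53.6 CPM. Cct6a was lowest in replicate 1 and Cct3 highest in replicate 2, with ranges of 0.46 and 0.35 on the log2 CPM scale. Cct2, at 0.08, and Cct8, at 0.09, had the narrowest ranges of the detected ring genes.

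The levels of the ring's subunit genes were not equal. Per kilobase, Cct6a was highest at 87.5 ± 14.6 CPM, followed by Cct2 at 63.0 ± 2.06, Cct5 at 48.3 ± 1.90, Cct8 at 35.4 ± 1.14, Cct7 at 18.0 ± 1.55, Cct4 at 13.6 ± 0.841 and Cct3 at 9.27 ± 1.29 CPM (SD, n = 3), and no member overlapped with the next. Tcp1 had 19.9 ± 2.45 CPM per kilobase. The highest member exceeded the lowest 8.17-fold, 8.75-fold and 11.5-fold. Across the 7 detected members the SD of log2 CPM per kilobase was 1.21 ± 0.05. The 6 subunit genes of prefoldin, which hands clients to CCT, spanned 2.01-fold, 2.55-fold and 2.96-fold, with an SD of 0.53 ± 0.11. This contrast depended on the length used. Without division by length the SD was 0.86 for CCT and 0.77 for prefoldin. The CCT genes then spanned 4.64-fold, 6.42-fold and 6.56-fold, and the prefoldin genes 3.26-fold, 3.90-fold and 4.81-fold. The CCT order changed too, with Cct4 lowest on average and Cct7 above Cct8. The SD was 1.05 for CCT and 0.48 for prefoldin with the length of the longest transcript, and 1.11 for CCT and 0.62 for prefoldin with exon bases outside shared stretches. The difference between the complexes was not tested.

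**Figure D3:**
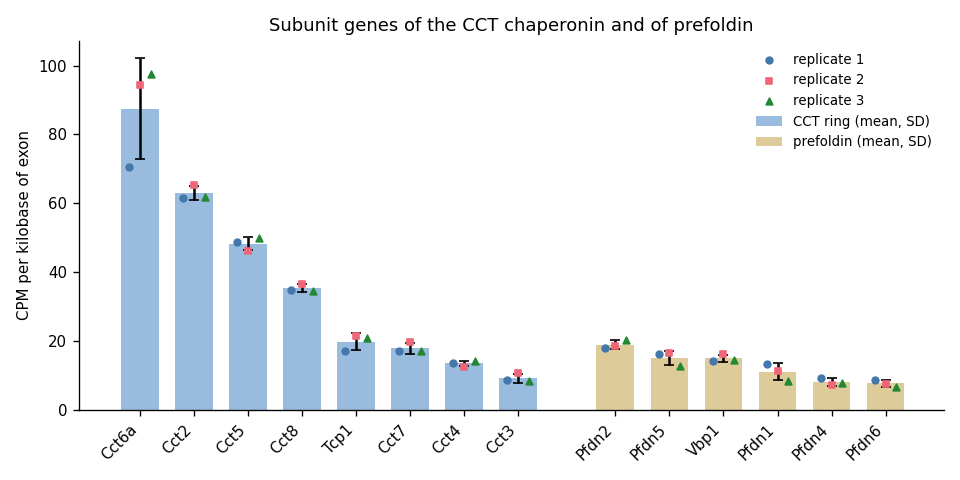
CPM per kilobase of exon for the detected CCT ring genes, with Tcp1, and for the prefoldin genes. Bars are means and error bars SDs of 3 libraries, and points are the libraries. The CCT genes descend from Cct6a at 87.5 to Cct3 at 9.27, while the prefoldin genes lie between 7.79 and 19.1 on this scale; without division by length the SDs of the log2 values were 0.86 for CCT and 0.77 for prefoldin.

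The remaining CCT members were near 0. Cct6b, the testis-specific form of Cct6a in mouse, had no read, so Cct6a was at least 517-fold higher per kilobase, against a floor of 3 counts per library. Cct8l1 had 2 reads in all.

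In mitochondria Hspd1 (HSP60) and its lid Hspe1 (HSP10) work together, and their genes lie head to head on chromosome 1. Hspd1 had 195, 230.0 and 211 CPM and Hspe1 had 41.9, 43.9 and 42.9 CPM. Hspe1 had a narrow range of 0.06 on the log2 CPM scale, which is within counting error at its 492, 594 and 605 counts. Per kilobase the means were 80.2 ± 6.71 for Hspd1 and 29.1 ± 0.654 CPM for Hspe1, a log2 ratio of 1.46 ± 0.09 (SD, n = 3), and 2.30 without division by length. Of the 50-base stretches of Hspd1, 44.8% occur in another gene. The gene models overlap by 112 bases at their 5′ ends (GENCODE M21, GRCm38: Hspd1 chr1:55077835-55088243, minus, and Hspe1 chr1:55088132-55091307, plus). Without stated strand handling, reads in that overlap cannot be told apart.

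The Hspe1 window is shown because it holds a 4-unit form, alternating TTC and GAA with any 2 bases between neighbours, which the search of both strands and both phases found in windows of 2 members, Hspd1 and Hspe1, and in 8 of all 32851 windows (0.0244%). It lies at chr1:55087898-55088197, plus strand (GRCm38.p6), within the Hspd1 gene model and across the start of Hspe1, and the match in capitals runs from 89 to 72 bases before the start.
Hspe1: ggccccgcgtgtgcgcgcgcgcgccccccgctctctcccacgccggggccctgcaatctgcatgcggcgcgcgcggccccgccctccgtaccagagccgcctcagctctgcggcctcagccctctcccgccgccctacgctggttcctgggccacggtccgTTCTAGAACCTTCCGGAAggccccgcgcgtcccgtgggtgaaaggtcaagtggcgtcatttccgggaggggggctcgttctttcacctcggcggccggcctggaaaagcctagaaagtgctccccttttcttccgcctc

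J-domain proteins activate HSP70 and direct it to clients. Dnajc6, for auxilin, which with HSP70 removes clathrin coats, had 457, 574 and 583 CPM. Its mean of 91.1 ± 11.9 CPM per kilobase made it the highest J-domain member, at rank 276. Dnajc5, for cysteine string protein alpha, a chaperone on synaptic vesicles that acts with HSP70 on SNAP-25, had 419.7, 421 and 419 CPM, or 60.4 ± 0.107 CPM per kilobase. The libraries thus spanned 0.0049 on the log2 CPM scale, the narrowest range of the 70 members that passed the filter on low counts. At 4924, 5698 and 5919 counts this range is within counting error, so it does not show an unusually steady gene. The related Dnajc5b and Dnajc5g had no read, and Dnajc5 was at least 297-fold higher than Dnajc5b per kilobase, against a floor of 3 counts per library. Gak, the ubiquitous form of auxilin and not a member, had 108, 131 and 120 CPM, and Dnajc6 exceeded it 4.88-fold per kilobase (log2 ratio 2.29 ± 0.11), in 3 of 3 libraries.

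Further down the DNAJC class, Dnajc7, a co-chaperone with tetratricopeptide repeats that binds HSP70 and HSP90, Dnajc8, found with splicing factors, Dnajc18 and Dnajc27 had 32.7, 32.4, 31.9 and 26.3 CPM per kilobase, and neighbours in that order overlapped. Dnajc21, known for ribosome biogenesis, followed at 24.7 CPM per kilobase. Dnajc3 and Dnajc10, for P58IPK and ERdj5 of the endoplasmic reticulum, had 13.3 and 8.75 CPM per kilobase, with a log2 ratio of Dnajc10 to Dnajc3 of -0.62 ± 0.18. Dnajc13, for the endosomal protein RME-8, had 52.8, 66.6 and 68.9 CPM and, over its long transcript, 5.26 CPM per kilobase. The lowest detected members of the class were Dnajc14 at 1.03 and Dnajc25 at 0.812 CPM per kilobase. On this scale no library of Dnajc6 or Dnajc5 overlapped with one of Dnajc7. The order of Dnajc5 and Dnajc7 turned with the length used. With exon bases outside shared stretches Dnajc5 had 64.3 and Dnajc7 82.4 CPM per kilobase. That length rests on the longest transcript, which for Dnajc7 has 2330 bases against 4863 in the union of exons. The turn thus reflects the gene model as well as shared sequence.

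In the DNAJA class Dnaja2 and Dnaja1, the main cytosolic partners of HSP70, had similar CPM, 211, 238 and 250.2 for Dnaja2 and 208, 278 and 265 for Dnaja1. Per kilobase Dnaja2 was higher, at 78.3 ± 6.68 against 29.0 ± 4.34 CPM for Dnaja1 (log2 ratio of Dnaja1 to Dnaja2 -1.44 ± 0.13). Without division by length the same ratio was 0.09. With the longest transcript it was -0.85, and with exon bases outside shared stretches it was -0.37. The mitochondrial Dnaja3 had 11.4 and Dnaja4 8.89 CPM per kilobase, and 51.9% of the 50-base stretches of Dnaja4 are shared with Wdr61.

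In the DNAJB class the heat-inducible Dnajb1 (HSP40) led, with 129, 127 and 145 CPM, or 41.7 ± 3.03 CPM per kilobase, and made up 31.7% ± 2.12 of the class (SD, n = 3). Dnajb11 and Dnajb9, both of the endoplasmic reticulum, had 19.5 and 16.9 CPM per kilobase, and Dnajb5 lay between them at 18.9, with overlapping ranges. Dnajb6 and Dnajb2, known for holding back polyglutamine aggregation, had 11.5 and 6.47 CPM per kilobase. The log2 ratio of Dnajb6 to Dnajb1 was -1.85 ± 0.18 per kilobase of exon, -0.93 without division by length and -0.89 with the longest transcript. With exon bases outside shared stretches it was -0.09; 42.8% of the stretches of Dnajb6 are shared with another gene. Dnajb12 and Dnajb14, paired membrane proteins of the endoplasmic reticulum, had 4.27 and 1.32 CPM per kilobase. The log2 ratio of Dnajb14 to Dnajb12 was -1.70 ± 0.10 per kilobase, -1.10 with the longest transcript and 0.52 without division by length, so their order depends on the length used. Dnajb3 had 11 reads and Dnajb13 2 reads over the 3 libraries, and Dnajb7 and Dnajb8 had none.

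Small heat shock proteins bind unfolding clients without ATP and are best known from muscle, lens and glia. Hspb6 had 24.9, 13.2 and 18.2 CPM and Hspb8 had 3.49, 11.9 and 6.66 CPM. Replicate 1 was thus highest for Hspb6 and lowest for Hspb8, and replicate 2 the reverse, and per kilobase their ranges overlapped. Hspb11, which despite its symbol belongs to a ciliary transport complex, had 1.96, 2.81 and 2.20 CPM. Hspb1, the inducible small heat shock protein, had 0.767, 2.29 and 0.921 CPM, with 51.6% of its 50-base stretches shared with another gene. Hspb3 averaged 0.851 CPM, and Hspb2, Hspb7 and Hspb9 had 5, 9 and 1 reads in all. Cryab, a small heat shock gene outside the symbol rule that is abundant in glia, had 34.4, 42.6 and 22.7 CPM, or 22.5 ± 6.77 CPM per kilobase, above each small heat shock member. Hspb1, with 53 reads in all, and Hspb8 were highest in replicate 2. So were the astrocyte and oligodendrocyte marker sums (2603, 4170 and 3508 CPM, and 640.1, 782 and 594 CPM), but not each marker. Gfap (14.8, 11.8 and 11.5 CPM), Aldh1l1, Fgfr3 and Mbp (161, 155 and 97.1 CPM) were highest in replicate 1. S100b, Gjb6 and Mag were highest in replicate 3, and the other detected markers of both lists in replicate 2. The part of those cells in these values was not tested. Of the 2 members outside the families, Hspbp1 had 14.1, 18.3 and 10.1 CPM and Hspbap1 had 4.86, 7.02 and 4.61 CPM.

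Genes that work with the members but do not carry their symbols were read from fixed lists. Of the HSP90 co-chaperones 19 of 19 were detected, led by Stip1, which passes clients between HSP70 and HSP90, with 367, 353 and 320.4 CPM (165 CPM per kilobase), then Tomm34 at 26.6 CPM per kilobase. The lowest was Unc45a at 1.13 CPM per kilobase. Of the HSP70 nucleotide exchange and partner genes 12 of 13 were detected, including Bag1 at 61.6 and Bag5 at 26.7 CPM per kilobase. Stub1, for a ubiquitin ligase that binds both chaperones, was not detected, at 0.31 CPM per kilobase. Of its 50-base stretches 32.95% are shared with Jmjd8, so its count may be incomplete. Hyou1, an HSP110 relative of the endoplasmic reticulum, had 9.35 CPM per kilobase. Endoplasmic reticulum folding genes were detected in 13 of 13 cases, with Pdia3 at 89.4 and Calr at 88.0 CPM per kilobase beside 128 for Hsp90b1 and 50.5 for Hspa5, and Ero1lb lowest at 3.13 CPM per kilobase. Mitochondrial folding and protease genes were detected in 10 of 10 cases, among them Trap1, the mitochondrial HSP90, at 11.5 CPM per kilobase; Clpx was highest at 13.7 and Spg7 lowest at 1.87, with Hscb next to Clpx. J-domain genes without a Dnaj symbol, 4 of 4 detected, were led by Gak at 18.6 CPM per kilobase. Prefoldin and CCT partner genes, 10 of 10 detected, ran from Pdcl3 at 2.23 to Tcp1, with Pfdn2 at 19.1 CPM per kilobase.

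The heat shock factor list also held Hsbp1 and Hsf2bp, which are not factors themselves, and 4 of its 6 genes were detected. Of the factors, Hsf1, Hsf2 and Hsf4 were detected and Hsf5 was not. Hsf2bp was the lowest gene of the list. Hsf1, the main stress-responsive factor, had 30.2, 40.1 and 30.9 CPM (4.75 CPM per kilobase), and Hsf2 had 30.3, 42.0 and 53.0 CPM (4.35 CPM per kilobase). Hsbp1, a small protein that binds Hsf1, had 599, 510.4 and 566 CPM and the highest level of that list, 300.2 CPM per kilobase.

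Variation of the members between libraries was tested with edgeR's quasi-dispersion, fitted over all 12509 genes that passed a filter on low counts, 70 members among them. Varying beyond the trend at an adjusted p under 0.05 were 0 of the 70 members, against 0.0959% of all genes tested. The unadjusted p was under 0.05 for 7 members (10%), against 5.78% of all. limma-trend gave 0 members and 8 members on the same thresholds, against 0.0879% and 5.85% of all. The median ratio of quasi-dispersion to trend was 0.780 for members and 0.703 for all genes. The smallest adjusted p was 0.536, for Hsp90b1 (edgeR, unadjusted p = 0.00562). The other members with an unadjusted p under 0.05 were Hsp90aa1, Hspb8, Hspa5, Cct6a, Hspa2 and Dnajc24, at adjusted p of 0.777 to 0.852 (edgeR). None of the members of the partner lists was called either.

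**Figure D4:**
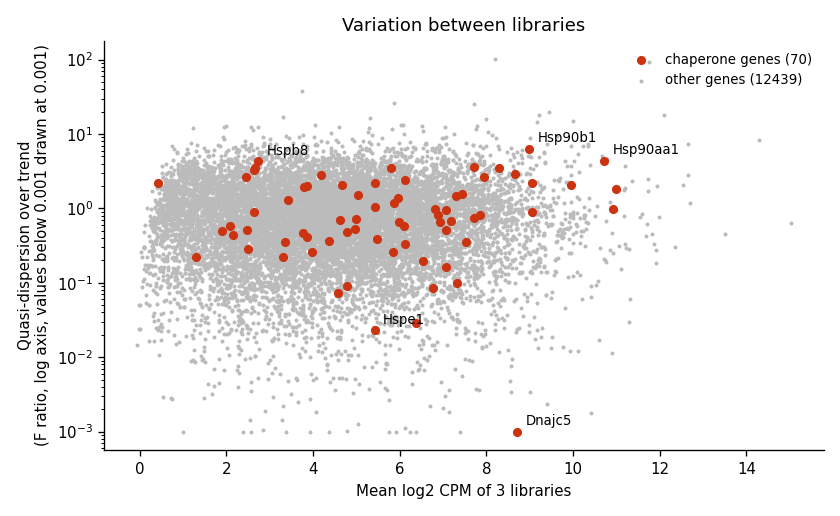
Quasi-dispersion of each gene over the trend (F ratio, log axis, values below 0.001 drawn at 0.001) against its mean log2 CPM over 3 libraries. Red points are the 70 members tested and grey points the other genes tested. The members spread over the range of the other genes, with Hsp90b1 highest at 6.34 and Dnajc5 at the lower edge.

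Without a call for any single gene, the HSP70, HSP110 and HSP90 genes leaned one way. Replicate 1 was the lowest library for 14 of the 17, or 82.4%, against 36.3% of all genes with a mean of 1 CPM or more. Of the 10 such members at 100 CPM or more in every library it was lowest for 9, against 49.5% of all genes at that level. The exceptions among the 17 were Hspa9 and Hspa14, lowest in replicate 2, and Hspa12b, lowest in replicate 3. The median deviation from a gene's own mean, on the log2 CPM scale, was -0.19, 0.09 and 0.11 in this group, and it was -0.30, 0.18 and 0.20 in the 3 HSP90 genes. It was -0.03, 0.03 and 0.01 in the 38 detected J-domain genes and -0.03, 0.05 and 0.00 in the 9 chaperonin genes, near the median of all genes. These are descriptions of the 3 libraries, and the groups' differences were not tested.

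Some other lists leaned the same way in replicate 1 and some did not, and their part in it was not tested. In replicate 1 the median log2 deviation was -0.38 over immediate early genes (0.17 and 0.22 in replicates 2 and 3), -0.35 over astrocyte markers, -0.26 over microglial markers, -0.48 over endothelial and mural markers and -0.10 over pan-neuronal markers. Nuclear non-coding RNAs went the other way, at 0.55, -0.15 and -0.60, and their summed level was 10733, 3588 and 2476 CPM. The immediate early genes, with 12 of 12 detected, summed to 1146, 1611 and 1768 CPM. HSP90 co-chaperones were at 0.06, 0.01 and -0.01, and endoplasmic reticulum folding genes at 0.00, 0.09 and -0.07. In replicate 1, prefoldin and CCT partners were at 0.14, HSP70 nucleotide exchange and partner genes at 0.02 and the heat shock factor list, Hsbp1 included, at -0.02. Mitochondrial folding and protease genes were at -0.05, J-domain genes without a Dnaj symbol at -0.07 and oligodendrocyte markers at -0.15 in that library.

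**Figure D5:**
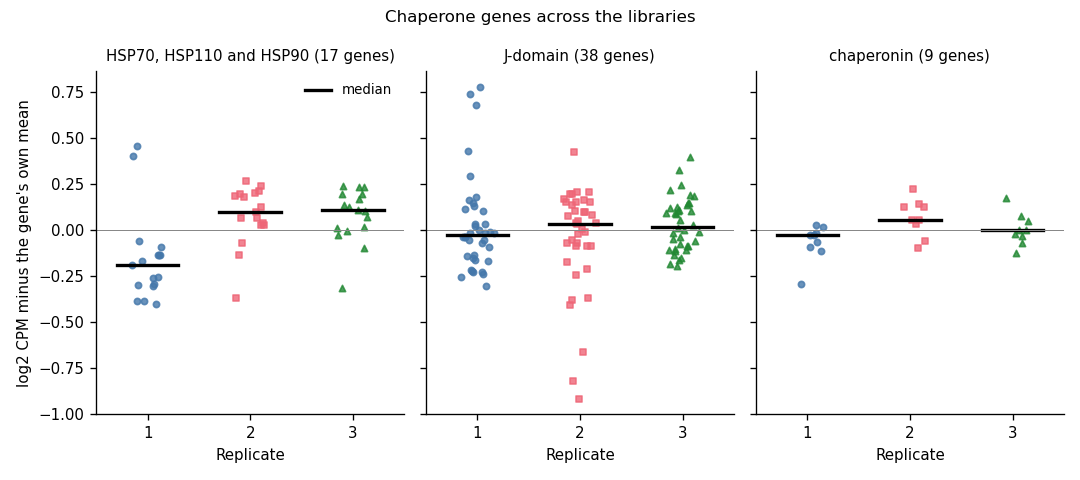
Difference of each member's log2 CPM from its own mean over 3 libraries, for the 17 HSP70, HSP110 and HSP90 genes, the 38 detected J-domain genes and the 9 detected chaperonin genes. Points are genes and bars medians; the bar of replicate 1 lies at -0.19 in the HSP70, HSP110 and HSP90 panel and at -0.03 in the other panels.

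The widest and narrowest members belonged to different groups. Among the 70 members past the filter on low counts, the range between libraries on the log2 CPM scale was widest for Hspb8 at 1.72, Dnajc24 at 1.59, Dnajc14 at 1.56, Dnajc4 at 1.44 and Hspb1 at 1.41, all of them at low counts. Below the filter, Dnajb3 with 11 reads and Hspb7 with 9 reads had wider ranges, of 2.42 and 2.09. Dnajc24, for an enzyme partner in diphthamide synthesis, had 9.89, 3.18 and 7.30 CPM. Dnajc14 had 10.3, 3.40 and 6.52 CPM, and Dnajc4 had 9.29, 3.32 and 4.96 CPM. All of these J-domain genes were lowest in replicate 2. The narrowest ranges past the filter were those of Dnajc5, Dnajc8 at 0.05, Hspe1 at 0.06, Cct2 at 0.08 and Cct8 at 0.09.

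Of 19 pairs of related genes compared per kilobase, the first named was higher in every library in 14 and the second in 5. Per kilobase of exon, no pair thus changed its order between libraries. With exon bases outside shared stretches the first named was higher in every library in 12 pairs. With 3 libraries an exact two-sided sign-flip test cannot go below p = 0.25 for any pair, so these ratios are given with their SD and without a test. Shared sequence limits several of them: 10 of the 83 members share over 40% of their 50-base stretches with another gene, while 38 share none.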

How the data were processed

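Cortical immunoprecipitates of 3 libraries were analysed. The deposited tables hold raw counts under gene symbols, without normalization by the authors. STAR 2.0.0e and HTSeq were used with mm10, per the submitters' processing notes; the sources used here give no annotation, counting mode or strand handling. Genes received 61.9%, 67.6% and 70.7% of the reads tallied; reads outside features (12.8% to 16.4%), ambiguous reads (2.37% to 2.65%) and reads not uniquely aligned (13.8% to 19.4%) stayed out of library sizes and tests. No per-sample column was left unused.

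Counts were scaled with TMM (edgeR 4.0.16, R 4.3.3) to CPM, with a prior count of 2 on the log2 scale. Exon lengths are the union of exons in GENCODE M21, matched on the symbol (23155 rows) or an older one (773 rows). The 50-base stretches of each member's longest transcript were searched in all transcripts of other genes. Those not shared gave the alternative length called exon bases outside shared stretches. The low-count filter used a minimum count of 10 and kept 12509 genes. With 1 group there is no contrast, so the test was whether a gene's quasi-dispersion exceeded the fitted trend, by an F test with Benjamini-Hochberg adjustment at 0.05 over all genes, tested on simulated data; limma-trend (limma 3.58.1) was the alternative. DESeq2 1.42.0 gave size factors for another. Heat shock and endoplasmic reticulum stress elements were searched in RefSeq promoter windows. Library pairs differed by more than sampling noise (chi-square per degree of freedom 12.1 to 27.1), so each counted as 1 replicate; the common biological coefficient of variation was 0.197.

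Members were named by a rule: each HSP90, CCT and mitochondrial chaperonin gene, the 5 highest and 2 lowest detected of each other family by CPM per kilobase, the 5 widest and 5 narrowest by range, members without a read, genes of the 19 pairs, Dnajc5, Dnajc6 and Dnajc13, and the 2 highest and 1 lowest of each partner list with Tcp1, Trap1, Hyou1 and Cryab. Other members named were chosen after their values were seen. The lowest gene of 1 partner list is not reported here. The members, lists and pairs were chosen with earlier results of these data known. Intervals and floors cover counting error only.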

Additional observations from a re-analysis of the deposited data

How the results depend on the processing

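Members detected stayed between 68 and 71 under every alternative run (69 as reported), and no member was called varying in any of them. The number of all genes called varying, 12, was 66 without the low-count filter, 5 without robust fitting and 4 to 10 with each library left out. Scaling by plain totals or DESeq2 size factors moved the median gene by at most 0.0159 (log2). Length mattered more. The median log2 CPM per kilobase of 5.07 (HSP70, HSP110 and HSP90), 2.82 (J-domain), 4.87 (chaperonin) and 0.11 (small heat shock) became 7.53, 4.84 and 6.77 for the HSP, J-domain and chaperonin groups without length, 5.57, 3.17, 5.48 and 0.33 with the longest transcript, and 5.64, 3.21, 5.63 and 0.65 with exon bases outside shared 50-base stretches, an alternative chosen after seeing the data. Among genes past the filter, medians were 3.46 (J-domain), 5.15 (chaperonin) and 1.12 (small heat shock). Family shares without length were 65.6% for Hspa8, 48.0% for Hsp90ab1, 41.7% for Dnaja2, 23.1% for Dnajb1 and 25.7% for Dnajc6; outside shared stretches they were 83.2% for Hspa8, 66.0% for Hsph1, 37.5% for Hsp90ab1, 35.8% for Cct6a, 44.3% for Dnaja2, 23.9% for Dnajb1 and 18.5% for Dnajc6. The CCT spread of 1.21 was 0.86, 1.05 and 1.11 without length, with the longest transcript and outside shared stretches. Of the pairs, 3 reversed: Hsp90ab1 to Hsp90aa1 (-0.55 outside shared stretches), Dnaja1 to Dnaja2 (0.094) and Dnajb14 to Dnajb12 (0.52), both without length. These alternatives changed the length alone. The one outside shared stretches starts from the longest transcript in place of the union of exons. No paired analysis was possible because the libraries form 1 group. Depth limits members near the floor of 0.213 to 0.256 CPM.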
